A study of Homo sapiens with 6 samples.

Results

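The 9 genes described here encode proteins of the methionine cycle, among them the methionine adenosyltransferase subunits MAT1A, MAT2A and MAT2B. The others are the methyltransferase GNMT, the hydrolase AHCY, the homocysteine methyltransferases BHMT, BHMT2 and MTR, and CBS, which opens transsulfuration. The 9 genes were chosen by name for their place in the pathway, with earlier results of these data known. All 9 were found among the 26475 genes of the table. The libraries came from HepG2, a human hepatocellular carcinoma line that keeps many liver functions. In the treated group the cells expressed TAF2, one of the proteins of the promoter-binding complex TFIID, and in the control group they expressed the fluorescent protein eGFP, with 3 libraries in each group, all from exponentially growing cells. The labels name neither the vector and promoter that drove expression, nor whether a clone or a pool of cells was used, nor whether the 3 libraries of a group were separate cultures, so p-values here reflect library-to-library spread, which may be technical.

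Methionine adenosyltransferases join methionine to ATP and make S-adenosylmethionine, the methyl donor of most methylation reactions. Methyltransferases release S-adenosylhomocysteine, which AHCY splits into adenosine and homocysteine. Homocysteine is methylated back to methionine, by MTR with folate and cobalamin or by BHMT with betaine, or it is drawn off towards cysteine by CBS. Adult hepatocytes run the cycle with MAT1A, GNMT and BHMT. MAT2A serves most other tissues, and a shift from MAT1A to MAT2A is well known in liver cancer and in dividing liver cells.

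BHMT, MAT1A and GNMT, genes typical of adult liver, fell with TAF2. GNMT was 1.97-fold lower and MAT1A 1.95-fold lower. BHMT was 4.04-fold lower as counted, but it shares reads with BHMT2, and the summed pair, which does not depend on how those reads were divided, was 1.77-fold lower. BHMT2, as counted, and CBS fell less, and MAT2A and AHCY rose slightly. At an adjusted p under 0.05 in edgeR's quasi-likelihood test, with Benjamini-Hochberg (BH) adjustment over all 12902 tested genes, 7 of 9 members were called, against 43.0% of all tested genes. Lower calls numbered 5 of 9 (22.4% of all tested genes) and higher calls 2 of 9 (20.6%). In the same 7 genes the CPM (counts scaled to the library total) of the groups did not overlap, as in 50.6% of all tested genes. The median log2 fold change of the 9 was -0.20, against -0.0027 over all tested genes. Tested against a 1.5-fold change instead of 0, the members called were 2 of 9, BHMT and MAT1A, against 2.89% of all tested genes.

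TAF2 itself, called overexpressed in the study's title, was at 35.9, 40.4 and 37.5 CPM in the eGFP and 50.1, 48.3 and 47.4 CPM in the TAF2 libraries (log2 fold change 0.36, edgeR adjusted p = 1.44e-08), and whether reads of the introduced copy are included was not given. Totals ran from 22276308 to 28024004 counts per library. All 10 hepatocyte markers of the HepG2 check were measured, 8 of them fell and 1, FGB, rose, and their summed level was 48310 to 49790 CPM in eGFP and 38770 to 40590 CPM in TAF2. The blood cell markers PTPRC and CD3E were at 0 in all libraries, and the summed level of 10 markers of blood, endothelial and stromal cells was 94.6 to 103.3 CPM in eGFP and 84.2 to 89.8 CPM in TAF2, most of it CD68 and ACTA2; of the 4 tested, 2 fell and 1 rose. Fewer cells of a kind and less RNA per cell cannot be told apart in such bulk libraries. The part of the markers' shift in the falls of BHMT, MAT1A and GNMT was not tested.

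**Figure D1:**
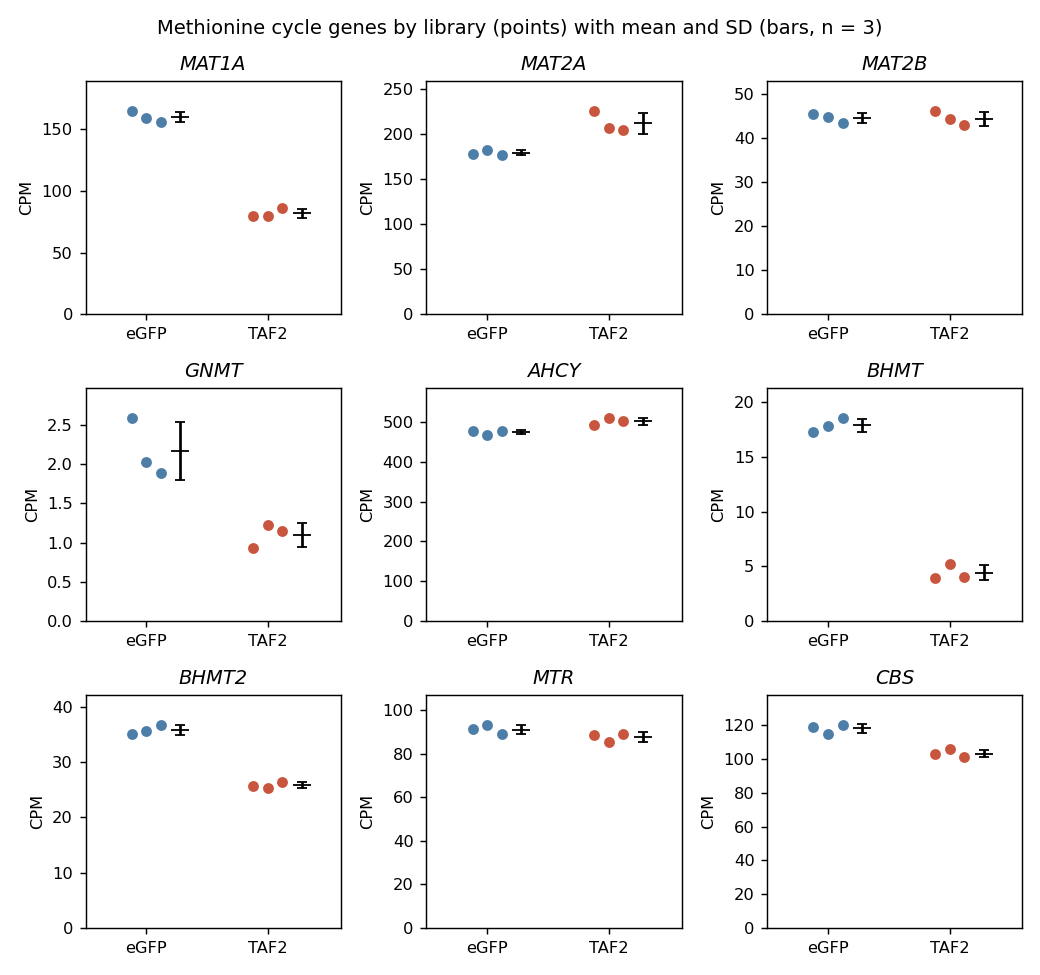
CPM of each of the 9 genes on a linear axis, with 1 point for each of the 3 eGFP (blue) and 3 TAF2 (red) libraries and the mean with its SD as a bar. The groups are apart in MAT1A, MAT2A, GNMT, AHCY, BHMT, BHMT2 and CBS, and they overlap in MAT2B and MTR.

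**Figure D2:**
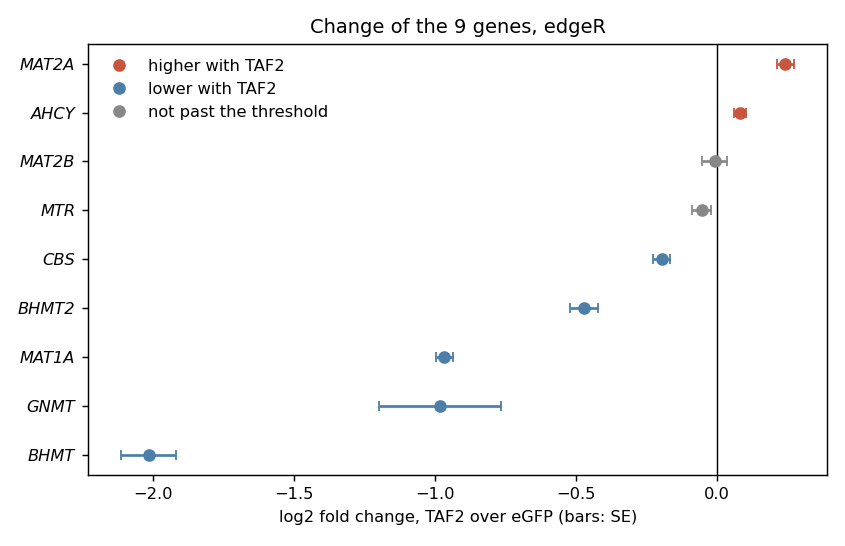
Log2 fold change of TAF2 over eGFP for each gene, with its standard error as a bar and colour for the call. Values run from -2.01 for BHMT to 0.24 for MAT2A, and GNMT, the gene with the lowest counts, has the widest bar.

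The sequences in front of BHMT and MAT1A, the members past the 1.5-fold test, and of MAT2A, the other gene of the MAT1A to MAT2A ratio, are shown so that their start regions can be compared. Each run covers 250 bases before and 50 bases after the annotated start of transcription, read 5′ to 3′ on the gene's strand, from RefSeq on GRCh38.p14. Capitals mark matches, on either strand, to the TATA box (TATAAA), the CCAAT box (CCAAT), the GC box (GGGCGG), an E-box (CACGTG) and the extended receptor half-site bound by NR5A2 and its relatives (CAAGGTCA). BHMT lies at chr5:79111559-79111858 on the plus strand, MAT1A at chr10:80289609-80289908 on the minus strand and MAT2A at chr2:85538918-85539217 on the plus strand.
BHMT: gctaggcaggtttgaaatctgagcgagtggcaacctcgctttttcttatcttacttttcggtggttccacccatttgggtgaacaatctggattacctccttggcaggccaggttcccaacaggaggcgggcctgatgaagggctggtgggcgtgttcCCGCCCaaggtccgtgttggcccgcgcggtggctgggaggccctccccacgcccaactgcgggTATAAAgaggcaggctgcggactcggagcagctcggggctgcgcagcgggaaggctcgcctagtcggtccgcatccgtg
MAT1A: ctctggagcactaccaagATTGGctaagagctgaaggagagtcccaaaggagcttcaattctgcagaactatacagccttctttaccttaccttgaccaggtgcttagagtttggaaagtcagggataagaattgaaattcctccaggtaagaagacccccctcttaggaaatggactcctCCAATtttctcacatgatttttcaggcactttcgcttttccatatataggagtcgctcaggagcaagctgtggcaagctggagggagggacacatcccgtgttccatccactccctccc
MAT2A: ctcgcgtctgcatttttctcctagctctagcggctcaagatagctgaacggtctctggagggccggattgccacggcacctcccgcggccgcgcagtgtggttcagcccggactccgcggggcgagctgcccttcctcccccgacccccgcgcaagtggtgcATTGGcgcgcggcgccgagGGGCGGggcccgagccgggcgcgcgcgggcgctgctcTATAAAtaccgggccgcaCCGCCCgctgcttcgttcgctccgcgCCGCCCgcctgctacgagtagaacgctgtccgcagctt

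TATAAA was present in BHMT, beginning 29 bases before the start, and in MAT2A, beginning 32 bases before it, and 11.5% of 35116 promoter windows of the same length hold it on either strand. In MAT1A these exact letters were not in the window, which held CCAAT at 69 and 232 bases before the start (34.6% of windows hold CCAAT). The MAT1A window does hold the related letters tatata, between the nearer CCAAT and the start. Only exact TATAAA was searched for, so MAT1A is not shown to lack a TATA box. CCAAT was also in MAT2A, at 88 bases before the start, and GGGCGG (45.0% of windows) was in BHMT and MAT2A. Neither CACGTG (7.26% of windows) nor CAAGGTCA (1.28%) was in any of the 3. The windows differed in base composition. That of MAT1A had 48.0% G and C and 3 CpG pairs, fewer CpG pairs than in most windows (18.2% had fewer), BHMT had 62.3% and 21, and MAT2A had 71.0% and 43, more CpG pairs than 95.0% of windows. These matches describe letters in a window and not bound sites.

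MAT1A encodes the catalytic subunit of the liver forms of methionine adenosyltransferase (chromosome 10, 80271820 to 80289658, GRCh38.p14). Its level was 164.6, 159.3 and 156.4 CPM in eGFP replicates 1 to 3 and 79.6, 79.9 and 86.3 CPM in TAF2 replicates 1 to 3. Every TAF2 library lay far below every eGFP library, and the spread within a group was small beside the gap. The means were 160.1 ± 4.15 and 81.9 ± 3.77 CPM (SD, n = 3 each); on the log2 scale the fold change was -0.97 with a standard error (SE) of 0.031 (adjusted p = 2.08e-26, edgeR). Of all tested genes 1.98% had a lower log2 fold change.

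MAT2A encodes the catalytic subunit used outside the adult liver (chromosome 2, 85539168 to 85545281). It stood at 178.2, 182.3 and 177.1 CPM in the eGFP libraries and at 225.3, 206.9 and 204.4 CPM in the TAF2 libraries. All TAF2 values were above all eGFP values, with TAF2 replicate 1 the highest. From 179.2 ± 2.74 to 212.2 ± 11.4 CPM (SD, n = 3 each) the rise was 1.18-fold (log2 0.24, SE 0.030; adjusted p = 1.18e-07, edgeR), and 1370 of the 12902 tested genes had a higher log2 fold change. The last 558 bases of MAT2A overlap the end of GGCX on the other strand. The deposited MAT2A counts were whole numbers in 6 of 6 libraries, so no reads were divided between the genes. GGCX, the carboxylase of vitamin K-dependent proteins, itself fell from 104.3 ± 4.03 to 91.2 ± 5.72 CPM (log2 fold change -0.19, edgeR adjusted p = 0.000327).

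MAT2B, the regulatory subunit that binds the MAT2A enzyme, was not called (chromosome 5, 163503064 to 163519354). Its CPM ran from 43.5 to 45.7 in eGFP and from 42.9 to 46.1 in TAF2 libraries, so that the groups overlapped over most of their range. Its log2 fold change was -0.0075 (SE 0.043, edgeR adjusted p = 0.910), and its sign turned with the scaling used. The catalytic and the regulatory gene of this form therefore had different values: MAT2A rose, and MAT2B showed no detectable change at this depth.

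The MAT1A to MAT2A ratio of counts within a library, which library scaling cannot move, was 0.924, 0.874 and 0.883 in eGFP and 0.353, 0.386 and 0.422 in TAF2 replicates 1 to 3. The lowest eGFP ratio was above the highest TAF2 ratio. The mean went from 0.894 ± 0.0265 to 0.387 ± 0.0344 (SD, n = 3 each), a 2.31-fold fall or -1.21 on the log2 scale (SE 0.078). An exact two-sided permutation test of the log2 ratios gave p = 0.1, the smallest that 3 against 3 libraries allow, and the same after BH adjustment over the 2 ratios compared here. Per kilobase of transcript, with lengths of 3410 bases for MAT1A and 2819 for MAT2A, the ratio was 0.739 ± 0.0219 in eGFP and 0.320 ± 0.0284 in TAF2 (SD, n = 3 each). MAT2A was thus the more abundant of the pair per length in both groups, and the gap was wider with TAF2.

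**Figure D3:**
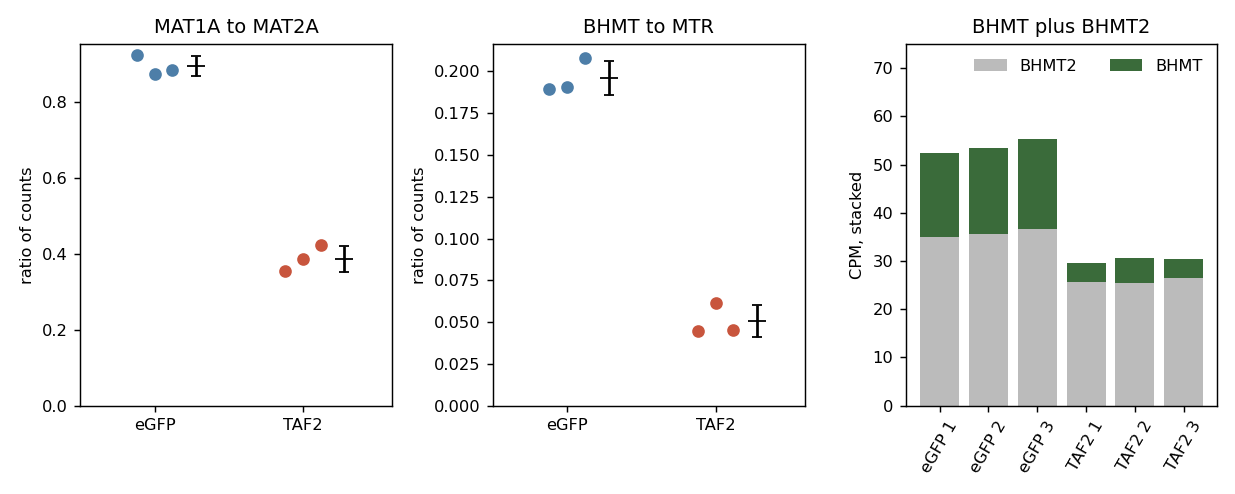
Left and centre, ratio of counts within each library for MAT1A to MAT2A and for BHMT to MTR, with points for the 3 eGFP and 3 TAF2 libraries and bars for the mean and SD. Right, CPM of BHMT2 (grey) with BHMT (green) stacked on it in each of the 6 libraries: the stack falls from 53.7 to 30.2 CPM on average and the green part shrinks most.

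GNMT, which methylates glycine and is held to buffer S-adenosylmethionine in hepatocytes, was scarce in these cells (chromosome 6, 42960754 to 42963880). It had 70, 45 and 47 counts in the eGFP libraries and 23, 31 and 32 in the TAF2 libraries. Its level was 2.58, 2.02 and 1.88 CPM in eGFP and 0.932, 1.22 and 1.14 CPM in TAF2 replicates 1 to 3. The groups did not overlap, and eGFP replicate 1 was the highest. The log2 fold change was -0.98 (SE 0.22, edgeR adjusted p = 0.000248), near that of MAT1A but with a far wider error, and a change of more than 1.5-fold was not shown for it (adjusted p = 0.270, edgeR glmTreat).

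AHCY, the only hydrolase of S-adenosylhomocysteine in mammals, was the most abundant of the 9 (chromosome 20, 34231981 to 34311836). It stood at 476.1, 468.2 and 477.3 CPM with eGFP and at 493.2, 509.3 and 502.2 CPM with TAF2. The groups did not overlap, but the difference was only 1.06-fold (log2 0.082, SE 0.022; adjusted p = 0.00185, edgeR). In absolute terms 64.9% of tested genes changed by more. AHCY and MAT2A were the members that rose.

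BHMT and BHMT2 are neighbours on chromosome 5, at 79111809 to 79132288 and 79069767 to 79090069, and their transcripts are alike. BHMT takes its methyl group from betaine, whereas BHMT2 prefers S-methylmethionine. Over the 1092 aligned bases of their coding sequences in GENCODE release 29 (GRCh38), 860 were identical (78.8%), with 3 identical runs of 25 or more bases. The longest, of 166 bases, lies in exon 7 of 8 in both genes, at chr5:79127764-79127929 in BHMT and chr5:79083637-79083802 in BHMT2, both on the plus strand. It is printed because reads that fall inside it cannot be assigned to either gene by sequence.
Shared run: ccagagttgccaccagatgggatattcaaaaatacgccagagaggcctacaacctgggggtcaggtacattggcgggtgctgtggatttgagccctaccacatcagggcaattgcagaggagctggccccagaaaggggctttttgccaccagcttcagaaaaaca

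The deposited values show this sharing. Counts of the other 7 members were whole numbers in all 6 libraries, whereas those of BHMT and BHMT2 were fractional in all 6 and added up to a whole number in each. The BHMT counts were 469.02, 395.37 and 461.69 in eGFP and 98.12, 133.53 and 113.41 in TAF2 replicates 1 to 3. Beside them, BHMT2 had 948.98, 792.63 and 915.31 counts in eGFP and 631.88, 646.47 and 741.59 in TAF2. Both genes, as divided, were lower in every TAF2 library.

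As divided by the authors' software, BHMT went from 17.3, 17.8 and 18.5 CPM in the eGFP libraries to 3.98, 5.24 and 4.05 CPM in the TAF2 libraries. The log2 fold change was -2.01 (SE 0.096, edgeR adjusted p = 3.74e-21), and 50 of the 12902 tested genes fell further. BHMT2 held 35.00, 35.7 and 36.7 CPM in eGFP and 25.6, 25.4 and 26.5 CPM in TAF2, a 1.39-fold fall (log2 -0.47, SE 0.050; adjusted p = 1.97e-10, edgeR). For both genes the lowest eGFP library was above the highest TAF2 library.

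The summed pair does not depend on how shared reads were divided. It held 52.3, 53.5 and 55.2 CPM in eGFP and 29.6, 30.6 and 30.5 CPM in TAF2 replicates 1 to 3. From 53.7 ± 1.47 to 30.2 ± 0.564 CPM (SD, n = 3 each) it was 1.77-fold lower (log2 -0.83, SE 0.045; adjusted p = 2.91e-19, edgeR). The summed pair was an alternative added after the fractional counts had been seen. BHMT's part of the pair went from 33.3% ± 0.227 to 14.6% ± 2.18 (SD, n = 3 each). That part, and with it the size of each gene's own fall, rests on the division. The number of reads that fit both genes is not given. Whether each gene fell on its own was not tested apart from the division.

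MTR, methionine synthase, makes methionine from homocysteine with methylfolate and cobalamin (chromosome 1, 236795281 to 236903981). Its CPM was 91.2, 93.3 and 89.0 in eGFP and 88.9, 85.3 and 89.2 in TAF2 libraries, and the groups overlapped. The log2 fold change of -0.054 (SE 0.033) did not pass the threshold (edgeR adjusted p = 0.191). Set against it within each library, BHMT was at 0.190, 0.191 and 0.208 of the MTR count in eGFP and at 0.0447, 0.0615 and 0.0454 in TAF2. That ratio fell 3.92-fold, with a log2 difference of -1.97 (SE 0.16, exact two-sided permutation p = 0.1, the smallest possible, and the same after adjustment). The BHMT to MTR ratio of counts is not a ratio of molecules, since the transcripts differ in length. The size of its fall also rests on how reads shared with BHMT2 were divided. The summed pair, which does not depend on that division, was 1.77-fold lower.

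CBS joins homocysteine to serine and so takes it out of the cycle (chromosome 21, 43053191 to 43076873). The libraries held 119.3, 115.1 and 120.2 CPM with eGFP and 102.8, 105.8 and 101.3 CPM with TAF2. The groups were apart by a small step, from 118.2 ± 2.71 to 103.3 ± 2.28 CPM (SD, n = 3 each). The log2 fold change was -0.20 (SE 0.030, edgeR adjusted p = 6.97e-07), and 34.4% of tested genes changed by more. The table lists each CBS transcript a second time with a suffix, so its row may pool CBS with its near-identical copy on the same chromosome. No separate row for that copy was found.

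Levels can be set side by side only per length, here as CPM per kilobase of the mean annotated length of each gene's transcripts. In the eGFP libraries AHCY led at 210.2 ± 2.18, followed by MAT2A at 63.6 ± 0.971. CBS at 47.0 ± 1.08 and MAT1A at 47.0 ± 1.22 did not differ beyond their spread, nor did MAT2B at 20.6 ± 0.511 and BHMT2 at 19.95 ± 0.478 (SD, n = 3 each). Depending on the transcript taken, CBS lay between 45.4 and 50.2 and BHMT2 between 17.5 and 23.3, ranges wider than these SDs. The levels of BHMT and BHMT2 also rest on how their shared reads were divided. MTR stood at 10.5, or between 8.66 and 17.4 depending on which of its transcripts is taken, BHMT at 7.14 ± 0.244 and GNMT at 2.02 ± 0.344. By mean lengths the same order held with TAF2, from AHCY at 222.5 ± 3.59 and MAT2A at 75.3 ± 4.04 through CBS at 41.1 ± 0.909 to MAT1A at 24.0 ± 1.11, so that CBS and MAT1A were then apart. BHMT2 at 14.4 ± 0.322 was then below MAT2B at 20.5 ± 0.740, and BHMT stood at 1.77 ± 0.284.

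The members' changes were set beside those of their chromosome neighbours, tested genes of at least 5 CPM within 5 Mb. Around BHMT 36 neighbours had a median log2 fold change of 0.024. BHMT was below all of them, and below 12851 of the 12902 tested genes. Among these neighbours the lowest were DMGDH, at -0.62, and BHMT2. DMGDH encodes the enzyme that oxidises dimethylglycine, the product of the BHMT reaction, and was named after its values were seen. It lies on the minus strand at 78997564 to 79069674, with 92 bases between its start and that of BHMT2 on the plus strand. It held 9.44, 7.15 and 7.78 CPM in eGFP and 5.47, 4.83 and 5.64 CPM in TAF2 libraries, with no overlap (SE 0.11, edgeR adjusted p = 1.42e-05). Without DMGDH and BHMT2 the other 34 neighbours had a median of 0.029 and a lowest value of -0.31. The adjacent genes DMGDH, BHMT2 and BHMT thus all fell as counted, while the genes around them had a median near 0. The separate falls of BHMT2 and BHMT rest on how their shared reads were divided.

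Around MAT1A 16 neighbours had a median of 0.046 and a lowest value of -0.23. MAT1A was below all of them, and below 12645 of the 12902 tested genes. MAT2A rose in a region where 14 of 27 neighbours fell and 1 rose (median -0.079), against 22.4% and 20.6% of all tested genes. Of the 27, 26 had a lower log2 fold change than MAT2A, as did 11531 of the 12902 tested genes. For GNMT 58 of 59 neighbours had a higher log2 fold change, as did 12655 of the 12902 tested genes. For CBS the counts were 43 of 49 neighbours and 10271 of 12902 tested genes. The neighbours of MTR (19, median 0.12) and of MAT2B (13, median 0.12) lay slightly above 0, and those of AHCY (73, median 0.033) close to it.

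**Figure D4:**
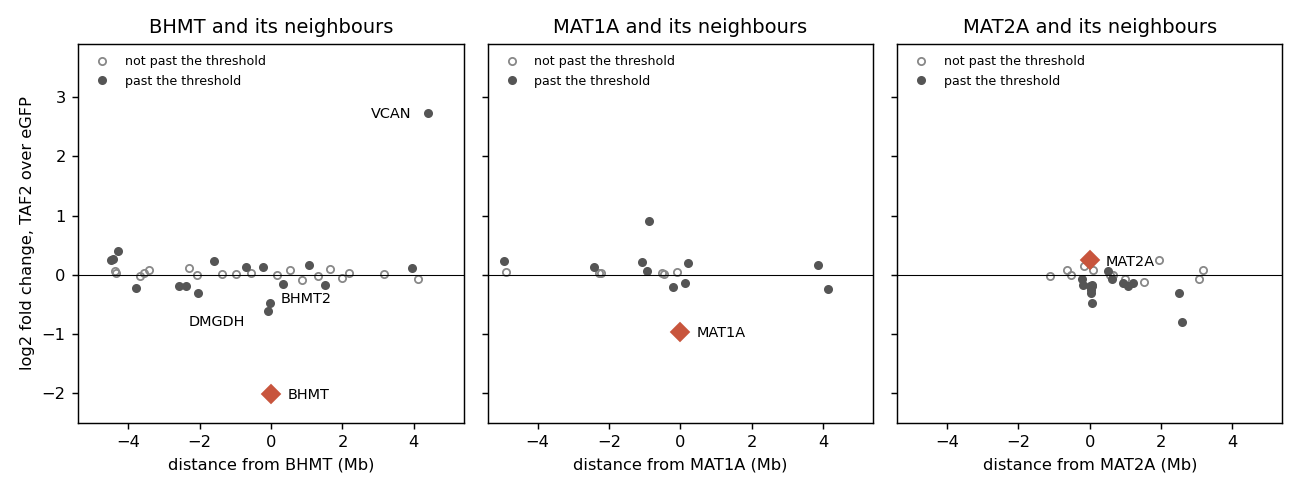
Log2 fold change of tested genes of at least 5 CPM against their distance from BHMT, MAT1A and MAT2A (red diamonds), with filled points for genes past the threshold. BHMT and MAT1A lie below all their neighbours, DMGDH (-0.62) and BHMT2 (-0.47) are the next lowest around BHMT (-2.01), and VCAN (2.73) is the highest neighbour of BHMT.

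Genes that feed or drain the cycle were counted in lists written down by function, to be read against all tested genes, of which 20.6% rose and 22.4% fell. For choline and betaine 8 of 11 tested genes fell and 0 rose, with a median log2 fold change of -0.29, against 22.4% and 20.6% of all tested genes. CHDH, which starts the oxidation of choline to betaine, went from 112.4 to 97.2 CPM (-0.21), SARDH, which oxidises sarcosine, from 77.5 to 60.03 CPM (-0.37), and PIPOX, a peroxisomal oxidase of sarcosine, from 106.8 to 71.6 CPM (-0.58). The choline kinase CHKA (-0.29) and the choline transporter SLC44A2 (-0.86) fell as well, as did ALDH7A1 (-0.089), which oxidises betaine aldehyde, and the betaine transporter SLC6A12 (-0.57). PEMT, which makes phosphatidylcholine with S-adenosylmethionine, was not called (0.015, edgeR adjusted p = 0.877).

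Small-molecule methyltransferases, which consume S-adenosylmethionine, fell in 4 of 6 tested genes and rose in 0 (median -0.29), against 22.4% and 20.6% of all tested genes, and 3 more had too few counts to be tested. Among those that fell, GAMT, the last enzyme of creatine synthesis, went from 90.9 to 72.9 CPM (-0.32), HNMT, which methylates histamine, from 105.5 to 88.0 CPM (-0.26) and TPMT, which methylates thiopurines, from 32.8 to 26.4 CPM (-0.31).

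The folate cycle went both ways, with 8 higher and 7 lower of 21 tested genes and a median of -0.0025. The folate hydrolase GGH (-0.38) and the folate transporter SLC46A1 (-0.33) fell, and ATIC, which uses formylfolate in purine synthesis, rose (0.24). In cobalamin handling 4 of 10 tested genes were called, near the 43.0% of all tested genes. All 4 were lower and 0 rose (median -0.14), namely MMAB (-0.46), MMACHC (-0.32), MMADHC (-0.14) and MUT (-0.14). MTRR, which keeps MTR active, was not called (0.061, edgeR adjusted p = 0.277). The call of MUT was lost without TAF2 replicate 3 (adjusted p = 0.0526) and with DESeq2 (adjusted p = 0.0609).

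Beyond CBS, the transsulfuration and cysteine list had 1 higher and 4 lower of 10 tested genes (median -0.13). GCLM, the modifier subunit of the enzyme that starts glutathione synthesis, rose from 58.8 to 89.2 CPM (0.60, edgeR adjusted p = 2.77e-18). MPST (-0.17) and TST (-0.27), which handle sulfur from cysteine, fell. CTH, the step after CBS, had a log2 fold change of -0.16 (edgeR adjusted p = 0.0475) and SUOX -0.18 (adjusted p = 0.0157). The call of CTH was lost without eGFP replicate 1 or 2 and without TAF2 replicate 1 or 2, with an adjusted p of up to 0.401 for CTH without TAF2 replicate 1. It was also lost with each other scaling, with no filter, with the replicate block and with limma voom (adjusted p from 0.0502 to 0.0703 for CTH) and with DESeq2 (0.212), so CTH passed in few settings. The call of SUOX was lost without eGFP replicate 1 or 3 and without TAF2 replicate 1 or 2, with an adjusted p of up to 0.0919 for SUOX without eGFP replicate 3, and with DESeq2 (adjusted p = 0.119). The list as a whole held 3 calls where TAF2 replicate 1, TAF2 replicate 2 or eGFP replicate 1 was left out and 6 where TAF2 replicate 3 was.

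For methionine salvage and polyamines, which start from S-adenosylmethionine, 2 rose and 5 fell of 12 tested genes (median -0.022). The spermine oxidase SMOX rose from 45.7 to 70.6 CPM (0.63) and ODC1, which makes putrescine, from 397.4 to 448.4 CPM (0.17). In the salvage branch ADI1 (-0.32), APIP (-0.29) and ENOPH1 (-0.21) fell. SAT1 (-0.074, edgeR adjusted p = 0.0445) and PAOX (-1.03, from 0.629 to 0.308 CPM, edgeR adjusted p = 0.0336) passed narrowly. The salvage and polyamine list held 6 calls instead of 7 with each other scaling, each other filter and limma voom, and 5 with DESeq2. For removal of S-adenosylhomocysteine and adenosine 2 rose and 3 fell of 6. AHCYL1, a relative of AHCY that does not act as the hydrolase, rose (0.10), as did the adenosine deaminase ADA (0.28, edgeR adjusted p = 0.0494), and the adenosine kinase ADK (-0.14), the adenosine transporter SLC29A1 (-0.18) and the ectonucleotidase NT5E (-0.57) fell. The call of ADA was lost with the replicate block, where this list held 4 calls instead of 5. It also held 4 calls with DESeq2 and with limma voom. Without eGFP replicate 1 or 2, or without TAF2 replicate 1 or 2, the list held 4 calls as well.

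Amino acid transporters that carry methionine rose in 5 of 6 tested genes and fell in 1, with a median of 0.23, against 20.6% higher and 22.4% lower of all tested genes. SLC38A2 rose from 977.6 to 1244 CPM (0.35), SLC7A5 from 753.5 to 919.2 CPM (0.29) and SLC38A1 from 295 to 332.4 CPM (0.17), as did SLC3A2 (0.16), the partner chain of SLC7A5, and SLC43A2 (0.33), whereas SLC43A1 fell from 116.3 to 88.4 CPM (-0.40). Of 6 genes listed as possible regulators of MAT mRNAs, 1 rose and 2 fell. METTL16, which methylates the MAT2A transcript, was not called (-0.040, edgeR adjusted p = 0.478). ELAVL1, an RNA-binding protein reported to bind MAT2A mRNA, rose by a small amount (0.096, edgeR adjusted p = 0.00957, but 0.0515 without eGFP replicate 3 and 0.0943 without TAF2 replicate 3). HNRNPD, reported to bind MAT1A mRNA, fell (-0.12), as did LIN28B (-0.36), for which an action on MAT mRNAs was not tested.

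**Figure D5:**
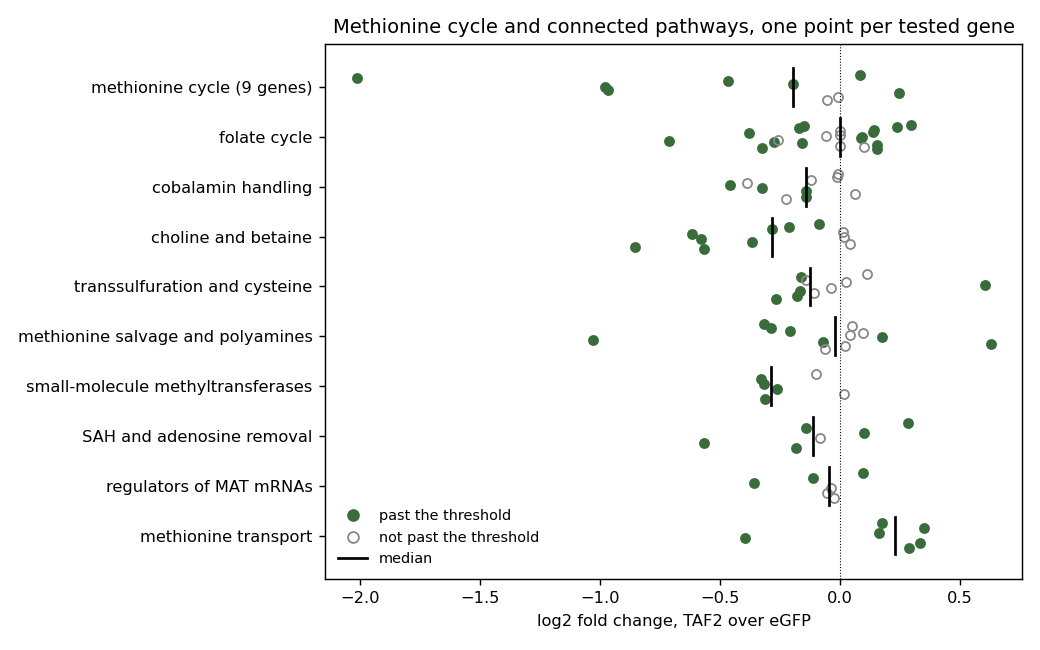
Log2 fold change of each tested gene in the 9 methionine cycle genes and in 9 lists of connected genes, with filled points past the threshold and a bar at each list's median. The choline and betaine list and the small-molecule methyltransferases lie mostly below 0 (medians -0.29), the folate cycle spreads around 0 and methionine transport lies mostly above it (0.23).

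By root mean square distance of the 6 log2 values, each centred on its mean, the genes nearest to MAT1A among 10348 others were SCN9A (distance 0.039), MT1G (0.053), TAGLN (0.057) and AIM1 (0.059). Nearest to BHMT were SLCO4C1 (0.083), MEP1A (0.12), MTTP (0.14) and FKBP11 (0.17), whose log2 fold changes ran from -2.04 to -2.26. With 3 libraries against 3 this measure mostly ranks genes by the size of their difference between groups.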

How the data were processed

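RNA sequencing libraries were made from total RNA with an Illumina TruSeq kit and sequenced in 2 rounds, per the labels' protocols. The authors deposited expected counts per gene, not normalized. Per the submitters' processing notes, RSEM was used with build hg38; which aligner, annotation release and strand setting were used is not given in the sources used here. RSEM divides reads that fit several genes, and 4.18% to 4.45% of deposited expected counts per library were not whole. Columns were matched to samples by name.

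Expected counts were rounded, filtered with filterByExpr (12902 of 26475 genes kept), scaled by TMM (factors 0.9976 to 1.003) and compared by edgeR 4.0.16 (R 4.3.3) through robust glmQLFit and glmQLFTest with group as the only term, BH adjustment over all tested genes and a threshold of 0.05. The biological coefficient of variation was 2.75%, so small differences pass. The standard error is the log2 fold change divided by the root of the F statistic. CPM are on the TMM-scaled totals. The fit was tested on simulated data. Ratios used an exact permutation test (scipy 1.17.1). Alternatives used DESeq2 1.42.0, limma 3.58.1 voom, other scalings and filters, a replicate block, libraries left out and a test against 1.5-fold.

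Coordinates came from a RefSeq table of GRCh38.p14 by transcript accession, transcript lengths and coding sequences from GENCODE release 29 (aligned with biopython 1.88) and promoters from RefSeq. Distances between log2 CPM profiles used a pseudocount of 0.1 CPM. The 9 genes and the lists were chosen with earlier results of these data known. Named beside the 9 genes were, by rule, up to 4 called genes of each list with the smallest p, genes of at least 20 CPM with an absolute log2 change of at least 0.5, and the 4 genes nearest in profile to MAT1A and to BHMT. Genes named as not called, and DMGDH, CTH, GGCX, ALDH7A1, SLC6A12, APIP, SAT1, PAOX, ADA, SLC3A2, SLC43A2 and the genes at the ends of neighbour ranges, were chosen after their values were seen. A few genes picked by this rule are left out of the text.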

Additional observations from a re-analysis of the deposited data

How the results depend on the processing

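The counts of 7 called members, 2 higher and 5 lower, were the same under other scalings, other filters, DESeq2, limma voom on unrounded counts, the replicate block and each library left out. The test against 1.5-fold called 2, of which 2 were lower and 0 higher. With BHMT and BHMT2 summed, an alternative chosen after seeing the data, 6 of 8 were called. MAT2B was called in no setting, and its log2 fold change was 0.0062 with upper-quartile scaling, 0.0028 with no filter and between -0.028 and 0.018 with 1 library left out. The transsulfuration list held 3 calls with DESeq2 and 3 to 6 with 1 library left out. For the methionine salvage and polyamine list these counts were 5 and 5 to 7. With 1 library left out, the log2 difference of the MAT1A to MAT2A ratio ran from -1.27 to -1.15 and that of the BHMT to MTR ratio from -2.12 to -1.89. With a window of 10 Mb the neighbours' medians ran from -0.0606 (MAT2A) to 0.0603 (MTR). Taking CBS together with its copy was not run, since no separate row for the copy was found. Same-numbered libraries of the groups did not deviate together (r from -0.103 to -0.0446 over genes, against 0.00935 to 0.0833 for other pairs), so the replicate numbers were not taken as pairs. With the replicate block all 7 calls held, the MAT1A to MAT2A difference was -1.21, and of the genes named from the lists by rule, with CTH added, only CTH lost its call (adjusted p = 0.0502). ADA, which that rule did not pick, also lost its call with the block. Over all genes the block called 5250. GNMT, at 23 to 70 counts per library, is the member whose size depth limits most.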
